A study of Rattus norvegicus with 47 samples.

Results

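Haptoglobin, the metallothioneins and the genes that move iron and haem were followed in rat blood over the first day after an experimental stroke. The group comprised 10 genes, namely Hp, Cd163, Hmox1, Mt1a, Mt2A, Slc30a1, Slc11a1, Slc40a1, Fth1 and Ftl1, each found by its symbol in the table's own annotation. These symbols had 12 of the 27596 probe sets of the table, of which 21406 carried a symbol. Where a symbol had more than 1 probe set (Mt1a and Ftl1), the one with the highest mean over the time points was used and the other is given beside it, so that 10 probe sets stand for the 10 genes.

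The animals were 8 male spontaneously hypertensive rats (SHR), an inbred strain with high blood pressure, aged 16 weeks. A thread was used to occlude the middle cerebral artery (MCA) and was withdrawn under a second anaesthesia between the 1 h and 2 h samples, so that the stroke was transient. Blood was taken into heparin from the tail vein at 0 h, just before the first anaesthesia, and at 1, 2, 3 and 6 h, and by puncture of the heart at 24 h after an anaesthetic overdose. Time and site of collection therefore cannot be told apart at 24 h, and since none of these samples is from sham-operated rats, stroke, surgery, anaesthesia and repeated bleeding cannot be told apart at any time point. RNA of the blood cell pellet was measured on 47 RatGene arrays, of which 7 were from 6 h and 8 from each of the other times.

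Free haemoglobin and haem are toxic, and separate proteins deal with each step of their removal. Haptoglobin binds haemoglobin in plasma, the macrophage receptor CD163 takes up the complex, and haem oxygenase 1 opens the haem ring and frees the iron. Iron is then stored in ferritin or leaves the cell through ferroportin. Metallothioneins are small cysteine-rich proteins that bind zinc and copper, and their genes are switched on by the zinc-sensing factor MTF1 and by glucocorticoids. In blood, haptoglobin is also a product of maturing granulocytes, which pack it in their granules, and ferroportin is present on red cells and their precursors.

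Levels are given as log2 signal, the authors' mean ± the authors' SD of the 7 or 8 arrays taken at that time, and a change is a difference of such means, so that a log2 difference of 1 is a doubling. A change was called where its p-value from limma's moderated test, adjusted over all 27596 probe sets, was below 0.05. By the F-test over the 6 time points 8 of the 10 genes varied, all but Fth1 and Ftl1, where 55.5% of all probe sets did. Compared with 0 h, the number of genes called higher was 3 at 1 h and then, in the order of the times, 5, 6, 7 and 2, and none was lower. Over all probe sets 21.7%, 21.7%, 27.3%, 22.5% and 17.4% were called higher at the 5 times and 15.4%, 18.6%, 19.2%, 19.3% and 13.9% lower. The median change of the 10 genes was 0.09, 0.25, 0.29, 0.40 and 0.06 at these times, beside 0.05, 0.05, 0.07, 0.05 and 0.04 over all probe sets.

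**Figure D1:**
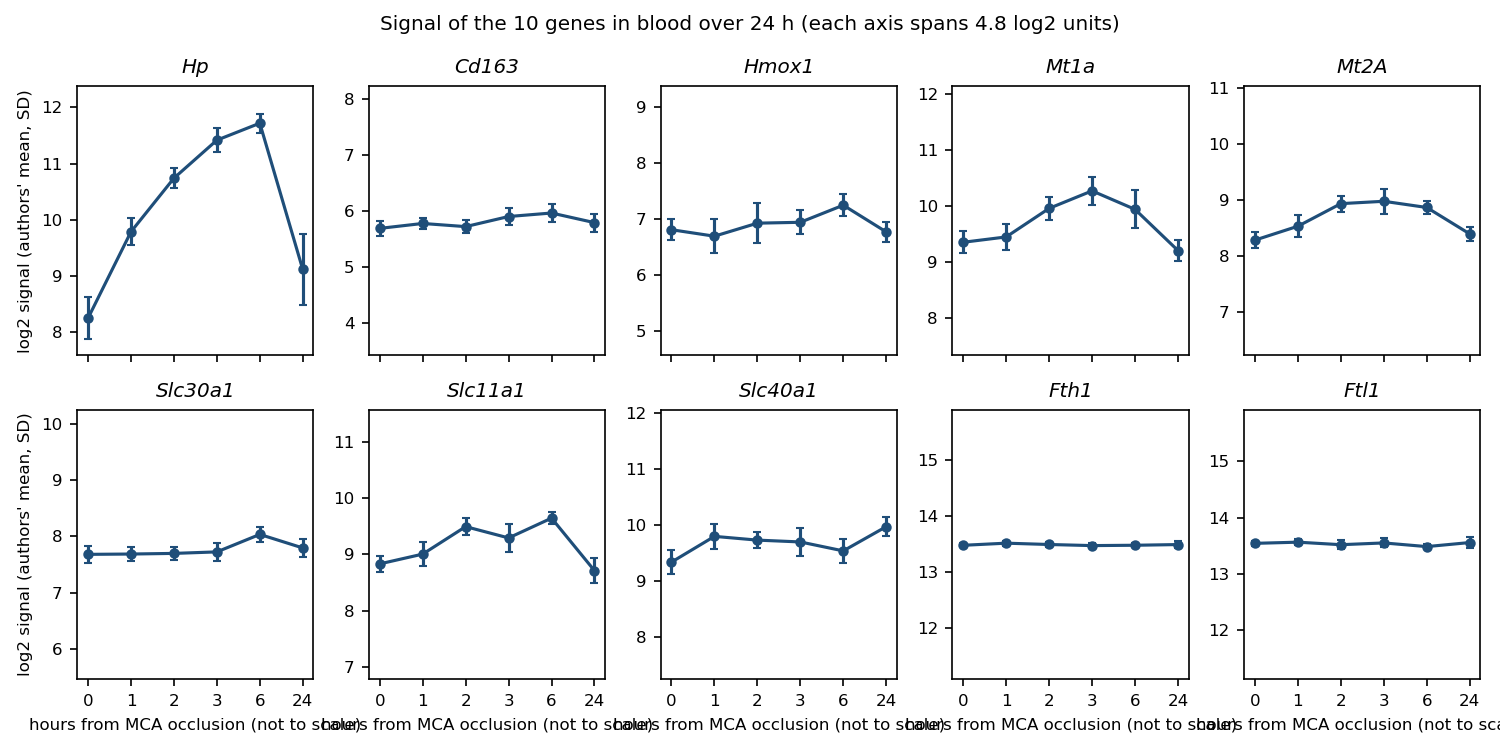
Log2 signal of each of the 10 genes (authors' mean as points, authors' SD as bars, 7 or 8 arrays a time point) at 0, 1, 2, 3, 6 and 24 h, drawn evenly spaced, with the same span of the vertical axis in each panel. Hp climbed from 8.24 to 11.72 by 6 h and was at 9.11 at 24 h, and the changes of the other genes were within 1 log2 unit.

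Hp, which encodes haptoglobin (chr19:52921324-52925933 on the plus strand of rn5), had the largest differences from 0 h of the group. At 0, 1, 2, 3, 6 and 24 h its signal was 8.24 ± 0.37, 9.78 ± 0.24, 10.74 ± 0.17, 11.42 ± 0.21, 11.72 ± 0.17 and 9.11 ± 0.63. Neighbouring levels in this order (0, 24, 1, 2, 3 and 6 h from lowest to highest) each differed by more than the larger of their SDs, and the arrays were most spread at 24 h. Compared with 0 h, Hp was 2.91-fold higher at 1 h, then 5.64-fold and 9.01-fold, and 11.1-fold higher at 6 h (log2 difference 3.47 ± 0.17, SE, adjusted p = 1.1e-21). At 24 h it was still 1.83-fold higher (log2 difference 0.87, 95% interval 0.54 to 1.20).

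Between neighbouring time points Hp rose by 0.96 from 1 h to 2 h (adjusted p = 5.9e-05) and by 0.68 from 2 h to 3 h (adjusted p = 0.0093). It was the only gene of the 10 called from 2 h to 3 h, a step at which 1.9% of all probe sets were called higher. The step from 3 h to 6 h was 0.30 and was not called (95% interval -0.04 to 0.64, adjusted p = 0.36). From 6 h to 24 h Hp fell by 2.61 (adjusted p = 2.6e-16). Ranked by the p of the F-test over the 6 time points, Hp was number 13 of 27596.

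The 3 named genes whose 5 changes from 0 h lay closest to those of Hp were Ifitm6, an interferon-induced membrane protein, Olfm4, a protein of neutrophil granules, and Il1r2, the decoy receptor of interleukin 1. The root mean square difference over the 5 changes was 0.31 for Ifitm6, 0.41 for Olfm4 and 0.44 for Il1r2. Ifitm6 changed by 1.94, 2.88, 2.86, 3.67 and 1.02 at 1, 2, 3, 6 and 24 h, Olfm4 by 1.75, 2.47, 2.32, 3.24 and 0.94, and Il1r2 by 2.32, 2.95, 3.02, 3.33 and 1.21. At 3 h Hp, at 3.17, was the highest of the 4.

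Neutrophil genes were higher in the same samples. Of 15 neutrophil markers 14 were called higher after 1 h, 13 at each of the next times to 6 h, and 9 at 24 h, where Ngp was lower. Their median change was 0.81, 1.31, 1.24, 1.29 and 0.38 in that order of times, and their range at 6 h was 0.03 to 2.81, beside 3.47 for Hp. The change was highest at 6 h, as for Hp, in 9 of the 15, S100a8, S100a9, Csf3r, Cxcr2 and Itgam among them, and at 2 h in 5. Fpr1, the receptor for formyl peptides, peaked at 2 h with 2.80 and stood at 2.47 at 6 h, and Mmp9, a granule collagenase, likewise peaked at 2 h with 2.75 and stood at 2.43 at 6 h. Camp, a cathelicidin of the granules, was 2.11 higher at 2 h, and Lcn2, lipocalin 2, was 2.81 higher at 6 h. In bulk blood a larger number of cells of a type and more RNA per cell cannot be told apart, and the part of the neutrophil genes in the course of Hp was not tested. Of 7 hepatocyte markers 3, 1, 4, 3 and 3 were called higher at the 5 times and none lower, with a median change of 0.20, 0.14, 0.21, 0.15 and 0.10. They were Ttr, Apob and Fgb at 1 h and 24 h, Ttr at 2 h, Alb, Apob, Fgb and Cyp2e1 at 3 h, and Ttr, Apob and Serpina1 at 6 h. Their largest called changes were 0.31 for Fgb, a fibrinogen chain, 0.29 for the cytochrome Cyp2e1 and 0.27 for Alb, albumin, at 3 h, and 0.29 for Apob, an apolipoprotein, at 6 h. At 0 h the means of the 7 markers were low, between 4.64 and 5.88, where the median of all probe sets was 6.61. The share of the 7 called higher lay between 14.3% and 57.1%, beside 17.4% to 27.3% of all probe sets. The part of these genes in the course of Hp was not tested either.

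**Figure D2:**
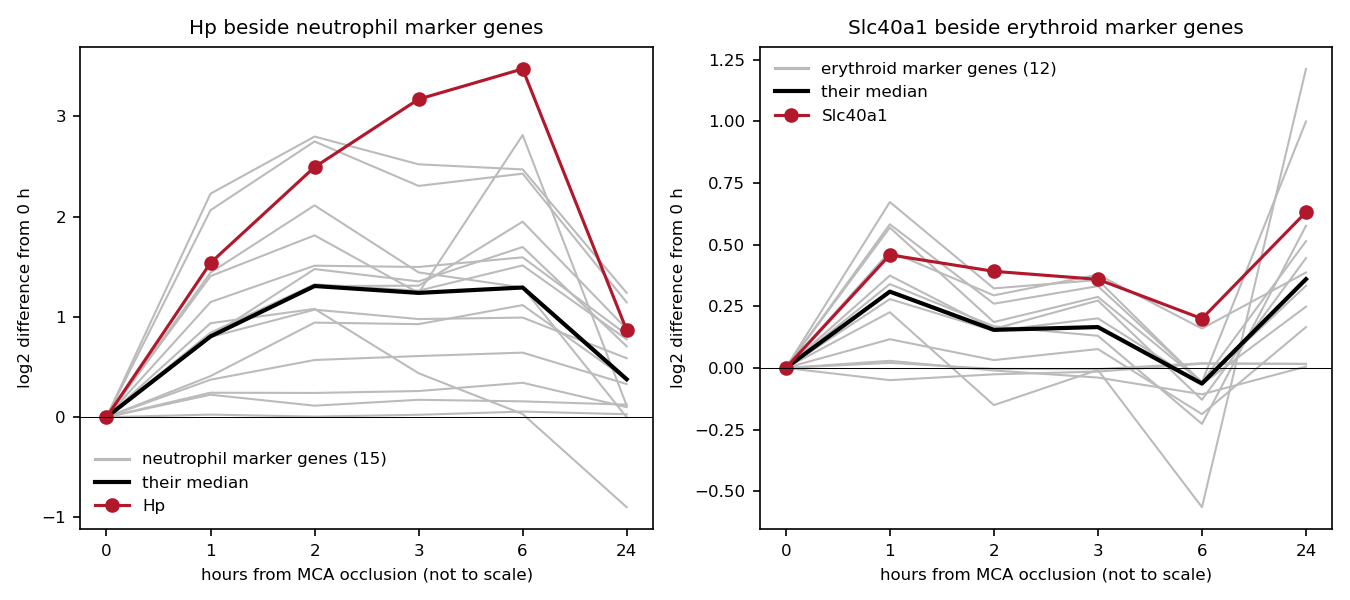
Log2 difference from 0 h of Hp (red, left) beside 15 neutrophil markers (grey, median in black) and of Slc40a1 (red, right) beside 12 erythroid probe sets. The highest of the 5 changes was at 6 h for Hp and for 9 of the 15 neutrophil markers. It was at 24 h for Slc40a1 and for 5 of the 12 erythroid probe sets, and at 1 h for 6 of the 12.

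Cd163 encodes the macrophage receptor for the haptoglobin-haemoglobin complex (chr4:223769448-223801946, plus strand, rn5). In the order of the 6 time points the signal was 5.69 ± 0.13, 5.78 ± 0.10, 5.72 ± 0.11, 5.90 ± 0.16, 5.96 ± 0.16 and 5.79 ± 0.16. All neighbours in the order of these levels lay within the larger of their SDs. The mean over the 6 times, 5.81, was low, with 19728 of the 27596 probe sets above it. Cd163 was called higher at 3 h, by 0.21 (adjusted p = 0.012), and at 6 h, by 0.27 (adjusted p = 0.0020). At 3 h the call was lost after quantile normalization of the means, with a difference of 0.12 (adjusted p = 0.19). Of 14 monocyte and macrophage markers 7 were higher at 3 h, and Csf1r, Cx3cr1, Cd68 and Adgre1 were lower. Among the 7, Cd14, the endotoxin co-receptor, was 1.84 higher at 3 h and Mrc1, the mannose receptor, 1.35 higher, while the log2 difference was -1.45 for Cx3cr1, the fractalkine receptor, and -1.48 for Adgre1, the F4/80 antigen.

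Hmox1 encodes haem oxygenase 1 (chr19:25622556-25629377, plus strand, rn5). Its signal was 6.81 ± 0.19, 6.70 ± 0.30, 6.93 ± 0.36, 6.94 ± 0.21, 7.25 ± 0.20 and 6.77 ± 0.18 from 0 h to 24 h. The 6 h level was the highest and lay within the larger SD of the 2 h level but not of the other 4, and the 5 lower levels lay within their SDs of each other. At 6 h Hmox1 was 1.35-fold higher than at 0 h (log2 difference 0.44 ± 0.12, SE, adjusted p = 0.0041), and from 6 h to 24 h it fell by 0.48 (adjusted p = 0.0040). At 2 h its difference from 0 h was 0.12 with a 95% interval of -0.13 to 0.36.

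In the wider set of haem scavenging and breakdown genes, calls were made in both directions. Of 13 genes on the array, Hp, Cd163 and Hmox1 included, 3, 3, 3, 5 and 3 were higher at the 5 successive times and 1, 5, 3, 3 and 2 lower, and quantile normalization left 3 calls in place of 5 at 24 h. The share higher was 23.1% at 4 of the 5 times and 38.5% at 6 h, beside 22.5% of all probe sets at 6 h, and the share lower reached 38.5% at 2 h, beside 18.6% of all. The median change was 0.06, 0.03, 0.13, -0.03 and 0.01, and whether the list differs from other probe sets was not tested. Hp was among the higher genes throughout, with Blvrb and the haem transporter Slc48a1 at 1 h, Blvrb and Hebp1 at 2 h, Cd163 and Hebp1 at 3 h, Cd163, Hebp1, Hmox1 and the exporter Abcg2 at 6 h, and Hpx and Blvrb at 24 h. The lower genes were Lrp1 at 1 h, Lrp1, Blvra, Hmox2, Pgrmc1 and Abcg2 at 2 h, Lrp1, Blvra and Pgrmc1 at 3 h, Blvra, Hmox2 and Pgrmc1 at 6 h, and Lrp1 and Hmox2 at 24 h. Hebp1, a haem-binding protein, was higher by 0.64, 0.92 and 1.32 from 2 h to 6 h and was back at 0.01 at 24 h. The receptor that takes up haemopexin with its haem, Lrp1, had log2 differences of -0.87, -0.72 and -0.40 over the first 3 times. Biliverdin reductase A, Blvra, which acts on the product of haem oxygenase, reached -0.66 at 6 h. Hmox2, the constitutive haem oxygenase, was lower at 2, 6 and 24 h, at -0.17, -0.28 and -0.32. Hpx, which encodes the haem carrier haemopexin, was called only at 24 h, with 0.20.

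The transporters that carry iron across membranes had separate courses. Slc11a1 encodes NRAMP1, which pumps iron and manganese out of the phagosome of macrophages and neutrophils (chr9:81420634-81431158, plus strand, rn5). The 6 levels, from 0 h to 24 h, were 8.83 ± 0.14, 9.01 ± 0.21, 9.50 ± 0.15, 9.29 ± 0.24, 9.65 ± 0.10 and 8.71 ± 0.22. It was higher than at 0 h at 2, 3 and 6 h, by 0.66, 0.46 and 0.82, and its 24 h difference of -0.12 had a 95% interval of -0.30 to 0.06. Slc11a1 rose from 1 h to 2 h by 0.49 (adjusted p = 1.8e-04), when 4.66% of all probe sets were called higher and Hp, Mt1a and Mt2A rose as well. The step of -0.20 from 2 h to 3 h was not called (adjusted p = 0.25). From 3 h to 6 h it rose by 0.35 (adjusted p = 0.017, and 0.051 with the spread of these time points only), and from 6 h to 24 h it fell by 0.94 (adjusted p = 5.5e-11). Its difference of 0.17 at 1 h was not called, but after quantile normalization it was, at 0.26 (adjusted p = 0.023). Of the 15 neutrophil markers 13 were called higher at each of 2, 3 and 6 h, when Slc11a1 was called, and 14 at 1 h and 9 at 24 h, when it was not, and their part in the course of Slc11a1 was not tested.

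Slc40a1 encodes ferroportin, through which cells export iron (chr9:52561322-52578125, minus strand, rn5). Its signal was 9.34 ± 0.22, 9.79 ± 0.22, 9.73 ± 0.14, 9.69 ± 0.25, 9.54 ± 0.22 and 9.97 ± 0.17 over the 6 times. The change was already present at 1 h, with 0.46 (adjusted p = 3.1e-04), and the next values were 0.39 and 0.36. At 6 h the difference was 0.20 and was not called (95% interval -0.01 to 0.41, adjusted p = 0.11), whereas after quantile normalization it was called, at 0.25 (adjusted p = 0.049). Its highest level was in heart blood at 24 h, 1.55-fold above 0 h (log2 difference 0.63 ± 0.10, SE, adjusted p = 3.6e-06). Neighbours in the order of its levels differed by less than the larger of their SDs. From 6 h to 24 h it rose by 0.43 (adjusted p = 0.0014) and was the only gene of the 10 called higher in that step, while Hp, Mt1a, Mt2A, Hmox1, Slc11a1 and Slc30a1 fell. Over all probe sets 10.2% were called higher and 8.68% lower in that step.

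Genes of red cell precursors were compared with Slc40a1 over the same times. Of 12 erythroid probe sets 7 were higher at 1 h, Gata1 and Slc25a38 at 2 h, the same pair with Epb42, Ank1 and Trim10 at 3 h, and 8 at 24 h. The 2 probe sets called at 2 h, where Slc40a1 was called, are 16.7% of the list beside 21.7% of all probe sets. At 6 h the count of higher genes was 0, and Alas2 and Tfrc were lower. Their median change was 0.31, 0.15, 0.17, -0.06 and 0.36. Ank1, which encodes the red cell ankyrin, changed by 0.58, 0.26, 0.33, -0.06 and 1.00, and Slc4a1, the band 3 anion exchanger, by 0.34, 0.17, 0.13, -0.23 and 0.58. Tfrc, the transferrin receptor, changed by 0.23, -0.15, -0.01, -0.56 and 1.21. Gata1, the erythroid transcription factor, was instead highest at 1 h, with 0.67, 0.32, 0.36, -0.06 and 0.33, and 6 of the 12 probe sets had their highest change at that time. Ahsp, the chaperone of alpha globin, was called at no time point. The globin probe sets, at means from 13.49 to 13.62, changed by at most 0.05 in size. They lay at or near the top of the table, and whether the arrays could have shown a higher signal was not tested. The genes whose courses lay closest to that of Slc40a1 were Sh3bgrl2, with a root mean square difference of 0.06 over the 5 changes, Bcl2l1-ps1, a pseudogene of the survival gene Bcl2l1, also with 0.06, and Esco2, a cohesin acetyltransferase of dividing cells, again with 0.06. Esco2 changed by 0.43, 0.38, 0.24, 0.16 and 0.57. The part of the erythroid genes, and of the site of collection at 24 h, in the course of Slc40a1 was not tested.

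No change was called in the ferritin genes. Fth1, the heavy chain that oxidises iron (chr1:232979091-232981410, plus strand, rn5), had a signal of 13.48 ± 0.04, 13.52 ± 0.05, 13.49 ± 0.05, 13.47 ± 0.05, 13.48 ± 0.03 and 13.49 ± 0.06 from 0 h to 24 h. Ftl1, the light chain (chr1:102527134-102528961, minus strand, rn5), had 13.54 ± 0.05, 13.56 ± 0.06, 13.52 ± 0.08, 13.55 ± 0.08, 13.48 ± 0.05 and 13.55 ± 0.10. No step between neighbours in the order of levels passed the SD in either gene. Differences from 0 h lay between -0.01 and 0.04 for Fth1 and between -0.06 and 0.02 for Ftl1, with 95% intervals reaching no further than -0.07 to 0.11 and -0.15 to 0.11. Both means were near the top of the table, whose highest mean over the 6 time points was 13.60, and whether the arrays could have shown a higher signal was not tested. The other Ftl1 probe set (chr5:156011824-156012769, plus strand, rn5) gave differences from -0.05 to 0.02, and RNA of near-identical ferritin copies may bind the same probes.

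Of 26 genes of iron uptake, storage and export 8, 9, 10, 6 and 9 were higher at the 5 times and 2, 2, 3, 5 and 2 lower. The share higher was lowest at 6 h, at 23.1%, beside 22.5% of all probe sets, and reached 38.5% at 3 h, beside 27.3%. The share lower was highest at 6 h, at 19.2%, beside 19.3% of all. Whether the list differs from other probe sets was not tested. The largest changes were those of Lcn2, lipocalin 2, which binds bacterial siderophores, with 2.81 at 6 h and 0.12 at 24 h, and of Steap4, a metalloreductase, which was 0.75, 1.32, 1.73, 1.92 and 0.71 above 0 h. Tf, the plasma iron carrier transferrin, was higher at all 5 times, with 1.53 at 2 h. Its receptor Tfrc was lower at 6 h (-0.56) and higher at 24 h (1.21). Heph, the ferroxidase hephaestin, was lower at every time point, from -0.46 at 1 h to -0.28 at 24 h. The other lower genes were the ferroxidase Cp at 1 h and 3 h, the iron chaperones Pcbp1 at 2 h and Pcbp2 at 6 h, the mitochondrial importer Slc25a28 from 3 h on, and Tfrc and Ncoa4 at 6 h. Ncoa4, the receptor that delivers ferritin to lysosomes, was lower at 6 h with -0.12 and higher at 24 h with 0.17.

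Among 16 genes that control iron handling 3, 5, 7, 6 and 4 were higher at the 5 times and 4, 3, 2, 3 and 6 lower. The share higher ran from 18.8% at 1 h, beside 21.7% of all probe sets, to 43.8% at 3 h, beside 27.3%. The share lower ran from 12.5% at 3 h, beside 19.2% of all, to 37.5% at 24 h, beside 13.9%. Those higher at 1 h were Fbxl5, Hamp and Bach1, joined at 2 h by Hif1a and Nfe2l2, and those at 24 h were Fbxl5, Hamp, Bach1 and Bmp6. Keap1 and Aco1 were lower at every time, Bmpr2 at all but 3 h, and Nfe2l2 at 1 h and 24 h. Fbxl5, the iron-sensing subunit that marks iron regulatory protein 2 for breakdown, was 1.07, 1.51, 1.81, 2.08 and 1.03 above 0 h. Aco1, which encodes iron regulatory protein 1, was lower throughout, from -0.36 at 1 h to -0.61 at 24 h. Hif1a rose by 0.59 at 3 h and had a log2 difference of -0.22 at 24 h. Nfe2l2, which encodes NRF2, the factor that drives Hmox1 and ferritin transcription under oxidative stress, had differences of -0.31, 0.21, 0.62, 0.64 and -0.25 from 1 h to 24 h, each a call.

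**Figure D3:**
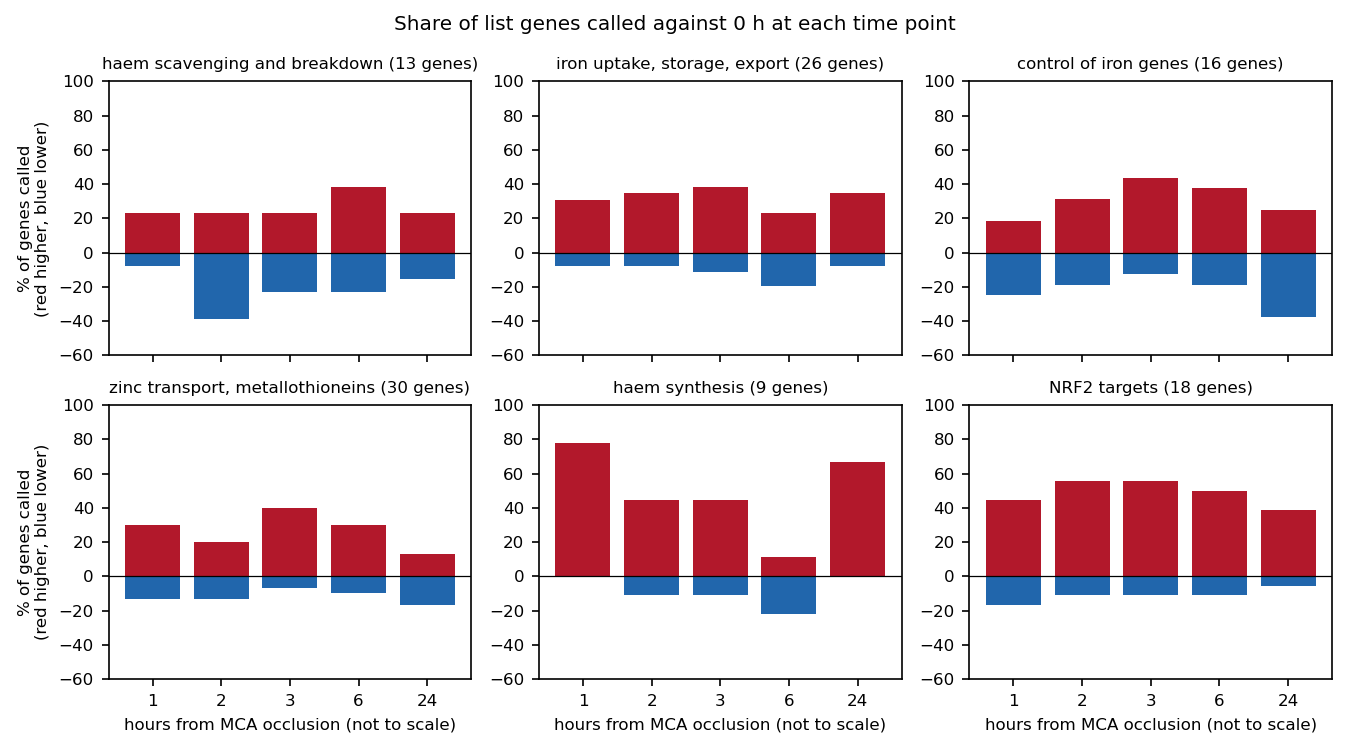
Share of the genes of 6 lists called higher (red, above 0) or lower (blue, below 0) than at 0 h at each time point, in percent of the genes measured. The haem synthesis genes had 7 of 9 higher at 1 h and 1 of 9 at 6 h, and in each list but haem synthesis genes were called in both directions at every time point.

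Mt1a and Mt2A had their highest signal at 3 h. Mt1a and Mt2A encode the ubiquitous metallothioneins, and Slc30a1 encodes ZNT1, the zinc exporter of the cell membrane. All these genes are textbook targets of MTF1, which binds the metal response element. In RefSeq (GRCr8) 5 of the 10 genes had an upstream sequence among those at hand, Mt1a under its present name Mt1. The sequences shown here are the 250 bases before the transcription start of the 3 that held the core of this element, spelled TGCACNC or TGCGCNC on either strand, with each match in capitals. The Mt1 sequence is that of chr19:10832976-10833225 on the minus strand, the Mt2A sequence that of chr19:10838709-10838958 on the minus strand, and the Slc30a1 sequence that of chr13:106021769-106022018 on the plus strand.
Mt1: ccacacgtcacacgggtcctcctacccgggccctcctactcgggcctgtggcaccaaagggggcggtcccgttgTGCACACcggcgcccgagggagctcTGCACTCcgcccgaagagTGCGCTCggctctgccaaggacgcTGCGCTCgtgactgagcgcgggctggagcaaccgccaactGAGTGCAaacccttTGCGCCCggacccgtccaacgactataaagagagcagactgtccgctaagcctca
Mt2A: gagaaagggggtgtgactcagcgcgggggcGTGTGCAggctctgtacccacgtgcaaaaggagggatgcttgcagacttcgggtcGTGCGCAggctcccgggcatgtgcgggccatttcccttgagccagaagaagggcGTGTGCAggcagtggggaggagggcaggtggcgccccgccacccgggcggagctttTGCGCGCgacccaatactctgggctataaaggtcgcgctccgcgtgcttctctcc
Slc30a1: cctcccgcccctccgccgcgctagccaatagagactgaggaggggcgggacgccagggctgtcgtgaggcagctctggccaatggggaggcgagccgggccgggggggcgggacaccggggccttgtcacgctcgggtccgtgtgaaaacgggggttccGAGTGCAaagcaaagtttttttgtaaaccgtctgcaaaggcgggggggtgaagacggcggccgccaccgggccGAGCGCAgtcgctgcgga

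Mt1 held 6 matches, Mt2A 4 and Slc30a1 2, and Cd163 and Slc40a1 held none. Of 33469 rat promoters of the same length, 20.6% held at least 1 match, 4.90% at least 2 and 0.266% at least 4. A match is a description of the letters and not a measured binding site. The core of the antioxidant response element, TGACNNNGC, was found once in each of the 3 sequences and in 10.1% of all promoters. The half-site of the glucocorticoid response element, TGTTCT, was searched on both strands and matched in none of the 5 sequences, where 17.5% of all promoters held it, which says only that these letters are not in these windows.

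The probe set of Mt1a with the highest mean (chr17:80437123-80437538, plus strand, rn5) had a signal of 9.35 ± 0.19, 9.45 ± 0.23, 9.96 ± 0.20, 10.27 ± 0.25, 9.94 ± 0.34 and 9.21 ± 0.18 from 0 h to 24 h. From lowest to highest the order was 24, 0, 1, 6, 2 and 3 h, in which neither the neighbours among 24, 0 and 1 h nor those of 6 h and 2 h differed by more than the larger SD, and 3 h lay above 2 h by more than it. Compared with 0 h the difference was 0.09 at 1 h (adjusted p = 0.53), 0.60 and 0.92 at 2 h and 3 h (the latter with adjusted p = 5.6e-09), and 0.59 by 6 h, so that Mt1a was 1.89-fold higher at its peak. At 24 h it was -0.15 with a 95% interval of -0.38 to 0.08. Mt1a rose by 0.51 from 1 h to 2 h (adjusted p = 0.0019) and fell by 0.73 from 6 h to 24 h (adjusted p = 4.1e-06). Neither the step of 0.31 from 2 h to 3 h (adjusted p = 0.13) nor that of -0.33 from 3 h to 6 h (adjusted p = 0.099) was called.

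The other Mt1a probe set (chr19:11277133-11278149, minus strand, rn5) lies beside Mt2A, where RefSeq places Mt1. Its signal was 8.96 ± 0.21, 9.07 ± 0.27, 9.67 ± 0.21, 10.06 ± 0.26, 9.63 ± 0.33 and 8.78 ± 0.20 from 0 h to 24 h. It had the same course with slightly larger differences of 0.11, 0.71, 1.10, 0.67 and -0.17. Its fall of 0.43 from 3 h to 6 h passed the threshold (adjusted p = 0.033), and its rise of 0.39 from 2 h to 3 h did not (adjusted p = 0.059). RefSeq lists a pseudogene of Mt1, named Mt1-ps3, on chromosome 17, and whether it is the place of the first probe set could not be settled across the builds. Probes for such near-identical copies can bind the same RNA, so the 2 probe sets are not separate evidence.

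Mt2A (chr19:11283228-11283805, minus strand, rn5) had a signal of 8.29 ± 0.14, 8.53 ± 0.20, 8.94 ± 0.14, 8.98 ± 0.23, 8.87 ± 0.12 and 8.40 ± 0.12 from 0 h to 24 h. The levels at 2, 3 and 6 h lay within their SDs of each other. Mt2A was higher at 1 h by 0.25 (adjusted p = 0.014), a call that was lost after centring each time point on its median, at 0.20 (adjusted p = 0.055). From 2 h to 6 h it was 0.65, 0.69 and 0.58 higher (adjusted p = 1.2e-09 at 3 h), and at 24 h the difference of 0.11 was not called (95% interval -0.05 to 0.27), whereas after quantile normalization it was, at 0.22 (adjusted p = 0.038). From 1 h to 2 h it rose by 0.40 (adjusted p = 5.8e-04), and from 6 h to 24 h it fell by 0.47 (adjusted p = 2.5e-05).

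Slc30a1 (chr13:115236546-115240420, plus strand, rn5) was called against 0 h at 6 h and at no other time. Over the 6 time points its signal was 7.68 ± 0.16, 7.69 ± 0.12, 7.70 ± 0.11, 7.72 ± 0.16, 8.04 ± 0.13 and 7.80 ± 0.17. The levels at 1, 2 and 3 h lay within 0.04 of that at 0 h, and the 6 h level was above all the others by more than the SD. At 6 h it was 1.28-fold higher than at 0 h (log2 difference 0.36 ± 0.07, SE, adjusted p = 1.3e-04). It rose by 0.31 from 3 h to 6 h (adjusted p = 0.0075), a step at which 2.34% of all probe sets were called higher and at which Slc11a1 was the only other gene of the 10 called higher, a call lost with the spread of these time points only. Hp and Hmox1 differed by 0.30 each in that step without a call. From 6 h to 24 h it fell by 0.24 (adjusted p = 0.016).

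**Figure D4:**
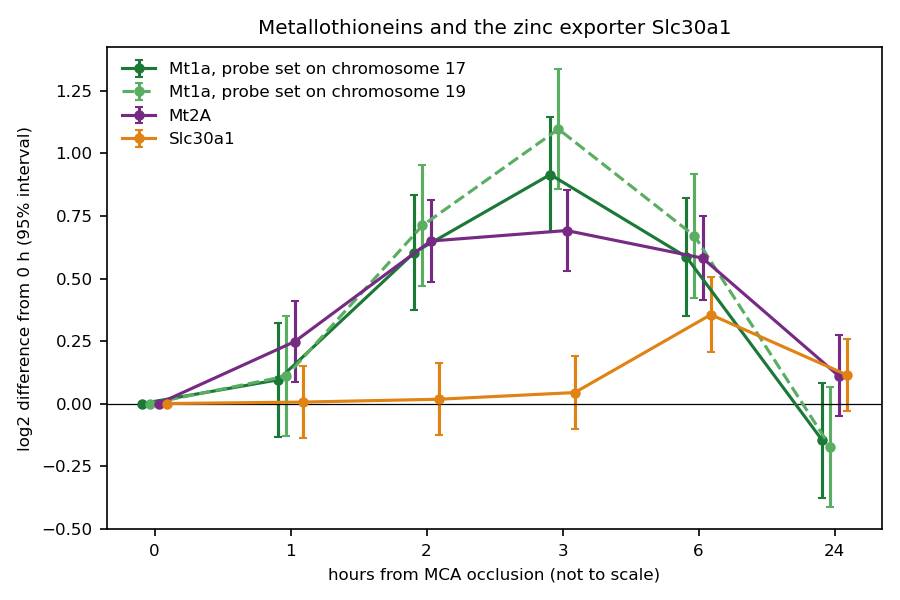
Log2 difference from 0 h (points, with 95% intervals) of both Mt1a probe sets, Mt2A and Slc30a1, with the time points evenly spaced and the points of a time shifted sideways to keep them apart. The metallothioneins were 0.60 to 0.71 above 0 h at 2 h, and Slc30a1 stayed between 0.01 and 0.04 until 3 h and was at 0.36 by 6 h.

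The genes closest in course to Mt1a were Lmnb1, lamin B1 of the nuclear envelope, with a root mean square difference of 0.06 over the 5 changes, Atp6ap2, a subunit of the vacuolar proton pump, with 0.11, and Actr6, an actin-related nuclear protein, with 0.12. Lmnb1 changed by 0.02, 0.58, 0.91, 0.67 and -0.08. In the wider list of 30 metallothionein and zinc transport genes 9, 6, 12, 9 and 4 were higher at the 5 times and 4, 4, 2, 3 and 5 lower. The share higher was 13.3% at 24 h, beside 17.4% of all probe sets, and reached 40% at 3 h, beside 27.3%. The share lower lay between 6.67% and 16.7%, beside 13.9% to 19.3% of all. The median change was 0.09, 0.04, 0.07, 0.07 and 0.07, beside 0.05, 0.05, 0.07, 0.05 and 0.04 over all. Whether the list differs from other probe sets was not tested. Slc30a5 and Slc39a10 were lower at every time, Slc39a7 at all but 3 h, Slc30a4 at 1, 2 and 24 h and Slc30a7 at 24 h, when Mt4, Slc30a2, Slc30a10 and Slc39a5 were higher. Centring left 8 calls at 1 h in place of 13. Mt1m, which RefSeq holds to be a pseudogene, changed by 0.33, 0.77, 0.80, 0.50 and 0.22, and the last was not called. At 2 h the difference was -0.78 for Slc39a10, a zinc importer, and -0.73 for Slc30a5, a zinc transporter of the secretory pathway. Mtf1 itself was not called at any time point, with differences from -0.15 to 0.02.

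Metallothioneins also answer to glucocorticoids, and other genes known for this had moved by 1 h. Of 12 such genes, of which Mt1a, Mt2A and Cd163 are part, 9 were higher at 1, 2 and 3 h, 8 were at 6 h, and Fkbp5, Dusp1, Anxa1 and Il1r2 were at 24 h, while Klf9 was lower at the last 2 times. These counts hold the genes in question: Mt2A at 1 h, Mt1a and Mt2A at 2 h, and Mt1a, Mt2A and Cd163 at 3 h and 6 h. The share higher was 75% up to 3 h, beside 21.7% to 27.3% of all probe sets, and 33.3% at 24 h, beside 17.4%. Fkbp5, a chaperone partner of the glucocorticoid receptor, was 1.56, 1.98, 1.57, 0.84 and 0.67 above 0 h. Zbtb16, a zinc finger repressor, was 0.98, 1.20, 0.81, 0.50 and 0.20 above 0 h. Both had their largest change at 2 h, while Il1r2 and Anxa1 had theirs at 6 h, with 3.33 and 1.63, and Per1 and Sgk1 at 1 h. Tsc22d3, a classic target, was called at no time point. The part of glucocorticoids in the course of the metallothioneins was not tested.

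**Figure D5:**
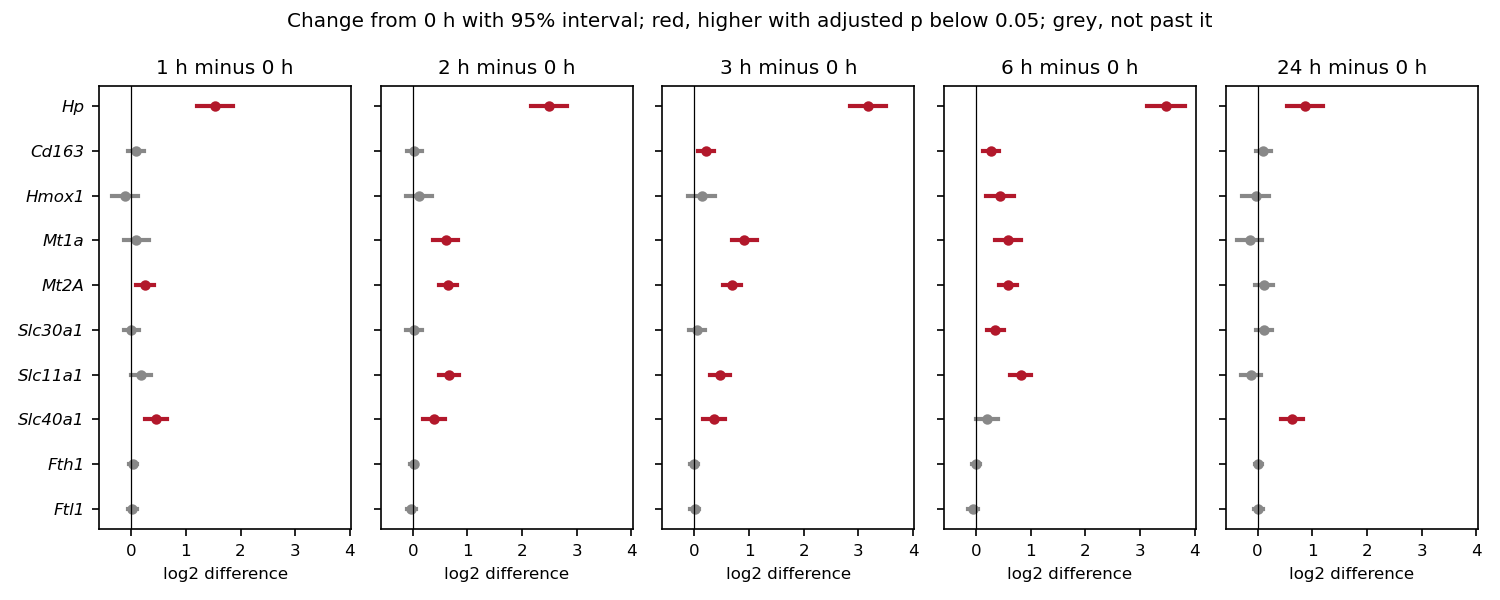
Log2 difference from 0 h of the 10 genes at each later time point (points, with 95% intervals), in red where the adjusted p was below 0.05 and in grey where it was not. At 6 h 7 genes were higher, and at 24 h Hp and Slc40a1 were.

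Other lists that hold members of the group behaved as follows. Of 18 acute phase genes 8, 9, 10, 9 and 9 were higher at the 5 times, with quantile normalization leaving 5 calls at 24 h, and the liver ferroxidase gene Cp was lower at 1 h and 3 h. From 44.4% to 55.6% of the acute phase list were higher, beside 17.4% to 27.3% of all probe sets, and at most 5.56% lower. Beside Hp and Lcn2 the largest changes were those of Lbp, the endotoxin-binding protein, with 1.81 at 6 h, and of Orm1, an orosomucoid, with 1.33 at 2 h. Of 18 NRF2 targets, among them Hmox1 and both ferritin genes, 8, 10, 10, 9 and 7 were higher at the 5 times and 3, 2, 2, 2 and 1 lower, namely Gclc at all 5, Prdx1 up to 3 h, Txnrd1 at 1 h and Abcc1 at 6 h. Slc7a11, the cystine importer, was 1.84 higher and Nqo1, a quinone reductase, 1.78 higher at 6 h, where Hmox1 was 0.44 higher. Gclc, the catalytic subunit for glutathione synthesis, had its largest difference at 2 h, with -0.72. Of the NRF2 targets 38.9% to 55.6% were higher, beside 17.4% to 27.3% of all probe sets. From 5.56% to 16.7% were lower, beside 13.9% to 19.3% of all. Whether these lists differ from other probe sets was not tested.

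Of 9 haem synthesis genes 7, 4, 4, 1 and 6 were higher at the 5 times, Cpox was lower at 2, 3 and 6 h, and Alas2 was lower at 6 h. The share higher was 77.8% at 1 h, beside 21.7% of all probe sets, and 11.1% at 6 h, beside 22.5%. Higher at 2 h and 3 h were Alad, Ppox, Tspo and Slc25a38. Ppox, the enzyme before ferrochelatase, had differences of 0.55, 0.45, 0.37, 0.13 and 0.40. Tspo, the mitochondrial translocator protein, was the gene that was higher at 6 h, with 1.91. Alas2, the erythroid enzyme of the first step, lay near the top of the scale at 13.39 at 0 h and was called lower at 6 h by a log2 difference of -0.11. Lymphocyte genes were lower in the same samples, with 6 or 7 of 7 B cell genes lower from 1 h to 6 h and Cd79a, Cd79b, Ms4a1 and Bank1 at 24 h, and all 8 T cell genes lower at every time point. Of 7 platelet genes Gp5 and Treml1 were higher at 1, 2 and 24 h, Itga2b at 1, 3 and 24 h, Gp1ba at 1 h and 2 h, Gp5 also at 3 h and Ppbp at 24 h, and no call was made at 6 h. At most 57.1% of the platelet genes were higher, at 1 h and 24 h, beside 21.7% and 17.4% of all probe sets.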

How the data were processed

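Gene symbols, lists and tests were chosen with earlier results of these data known. The authors deposited 1 table made from 47 arrays by RMA at gene level (log2 signal, quantile normalized over arrays, annotation na36 on rn5), with their mean and SD of the log2 values per time point. Its fold changes, p-values, FDRs and F-tests by the authors were not used. The submitters' processing notes name limma; the program behind the table is not given in the sources used here. The 47 columns of single arrays carry numbers that could not be matched to a rat or time point and were used in no step, so no single-array values, outlier checks or rat effects could be given. RNA work-up was in randomized batches that are not analysed here.

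The moderated tests (limma 3.58.1 in R 4.3.3, squeezeVar on the SD pooled over 6 time points with 41 degrees of freedom, and 5.71 prior degrees of freedom) used the deposited means and SDs with the number of arrays behind them, and were checked on simulated data. The outcome of that check is not given here. Arrays count as independent in the moderated tests, although the same 8 rats were bled repeatedly, and the number of arrays limits the precision. P-values were adjusted by the Benjamini-Hochberg method over 27596 probe sets. All 10 genes are described, with at most 4 genes of each of 15 lists named, those with the largest called change at any time, and any gene counted in a group of 5 or fewer. Mtf1, Klf9 and a few further genes of the neutrophil, erythroid and glucocorticoid lists, the globin probe sets among them, were named after their values were seen. Some genes of the lists are not reported here and were left out of the counts. Symbols not matched were Flvcr1, Alas1, Itgb3 and Apoa1. Likeness is the root mean square difference of the 5 changes from 0 h over probe sets with a symbol. Promoters come from RefSeq on GRCr8, and no coordinates were moved between builds. Alternatives were an ordinary variance, a trend and robust prior, the spread of the compared times only, centred or quantile normalized means, the lowest 25% of probe sets left out, probe sets with a symbol only, other probe sets, and, added after seeing the data, a spread without the 24 h arrays.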

Additional observations from a re-analysis of the deposited data

Results flagged for a closer look

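The 130 genes of the iron, haem, zinc, NRF2, acute phase and glucocorticoid lists were searched for a change at 24 h opposite to a called change at an earlier time. In 5 genes, none of them one of the 10 described, both changes were called and opposite. The difference between such changes is larger than either of them by construction, so its test adds nothing and is not given. Tfrc was 1.21 above 0 h at 24 h after -0.56 at 6 h. Ncoa4 was 0.17 above 0 h at 24 h after -0.12 at 6 h. In the other direction, Nfe2l2 was -0.25 at 24 h after 0.64 at 6 h, Hif1a was -0.22 after 0.59 at 3 h, and Klf9 was -0.39 after 0.27 at 1 h. The 24 h samples are heart blood, and time and site of collection cannot be told apart.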

How the results depend on the processing

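No paired analysis was possible because the names of the single-array columns carry no rat or time point, and columns were not assigned by their order or values. Of 218 counts recomputed under the alternatives, 156 were unchanged, 58 moved by at most 1.5 times and 4 by more. Of 718 recomputed changes of the 10 genes 711 kept their call, and no called change reversed. Under the 2 other scalings the number of the 10 genes called higher ranged from 2 to 4 at 1 h in place of 3, and quantile normalization gave 5 at 3 h, 8 at 6 h and 3 at 24 h, adding Slc11a1 at 1 h (0.26), Slc40a1 at 6 h (0.25) and Mt2A at 24 h (0.22). With the spread of the compared times only, 1 of the 10 genes in place of 2 was higher at 6 h than at 3 h, Slc11a1 being lost (0.35, adjusted p = 0.051). Quantile normalization of the means left 3 haem scavenging genes called at 24 h in place of 5 and 5 acute phase genes in place of 9, and the 3 h change of Cd163 at 0.12. Centring left 8 zinc and metallothionein genes called at 1 h in place of 13, and the 1 h change of Mt2A at 0.20. The causes were not tested. Uncalled differences near 0 can take either sign with the scaling: Fth1 lay between -0.04 and -0.01 and Ftl1 between -0.09 and -0.03 after centring. Leaving the 24 h arrays out of the spread, added after seeing the data, changed no call of the 10 genes up to 6 h.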
